A study of Mus musculus with 8 samples.

Results

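The hyaluronan genes described here are 8 of the 18533 gene symbols measured in mouse aortic smooth muscle cells (MASMCs). They were chosen by name for their roles, with earlier results of these data known, so shares called among them are description and not independent support. The 8 are the synthases Has1, Has2 and Has3, the hyaluronidases Hyal1 and Hyal2, the receptor Cd44, and the hyaluronan-binding proteins Tnfaip6 and Vcan. MASMCs are primary smooth muscle cells isolated from the mouse aorta. RNA-Seq was performed on 8 samples, 4 from WT mice and 4 from Hint1-/- mice, in which the gene for the small nucleotide-binding protein HINT1 is deleted in the whole body rather than in smooth muscle alone. All mice were males of 4 to 6 weeks. The cells of both genotypes had been stimulated with PDGF-BB, a growth factor that drives smooth muscle cells from the contractile to the synthetic state, at 20 ng/mL for 24 hours. The comparison therefore concerns Hint1 deficiency in PDGF-BB-treated cells, and cells without PDGF-BB were not analysed here. The study's descriptions name the thoracic aorta in one place and the whole aorta in another as the source of the cells. Nothing states whether the 4 samples of a genotype came from separate mice or separate cultures, so the p-values measure only the spread between these samples, which may be technical.

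Hyaluronan is a long, unsulfated sugar polymer of the extracellular matrix. It is built at the plasma membrane by the HAS enzymes from nucleotide sugars and extruded directly into the pericellular space, and it is cut by hyaluronidases, of which HYAL2 acts at the cell surface and HYAL1 in lysosomes. CD44 is its main cell surface receptor, versican (Vcan) binds it to form the hydrated coat around migrating and proliferating smooth muscle cells, and TSG-6 (Tnfaip6) transfers heavy chains of inter-alpha-trypsin inhibitor onto it and so cross-links it. In the artery wall, hyaluronan and versican are known to accumulate in lesions rich in synthetic smooth muscle cells.

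Library totals were nearly equal, from 20778077 to 20888041 assigned reads a sample. Hint1 itself had counts of 2272, 2336, 2364 and 2301 in the WT samples and of 713, 748, 778 and 715 in the Hint1-/- samples, so the labels and the targeted gene went the same way. Hint1 reads were not absent but stood at 0.321 times the WT level, and the source of the remaining reads was not tested. The smooth muscle label was checked against marker genes. The 8 smooth muscle markers summed to between 1360 and 1477 CPM, the reads of a gene after scaling all libraries to a common total, in WT and between 1123 and 1213 in Hint1-/- samples, and Acta2 was the most abundant. Macrophage markers summed to between 2263 and 2621 CPM in WT and between 1849 and 1968 in Hint1-/- samples, led by Lyz2. In WT samples Csf1r had 7863 to 8886 counts, Cd14 7823 to 9065, Cd68 6378 to 7313, Ptprc 1004 to 1162 and Adgre1 665 to 721. C1qa and C1qb had at most 33 counts in any sample. The 8 endothelial markers summed to at most 8.13 CPM. No analysed marker of the 7 marker lists was without counts in all 8 samples.

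The start regions of the called members that have an entry in the RefSeq promoter table are shown first, as a description of their sequence. Of the 8 members, 6 matched an entry. Has2 and Has3 did not. Each window runs from 250 bases before to 50 bases after the annotated start in GRCm38.p6, 5′ to 3′ on the strand of the gene: Tnfaip6 at chr2:52037863-52038162 on the plus strand, Vcan at chr13:89742463-89742762 on the minus strand, Hyal1 at chr9:107576700-107576999 on the plus strand, and Cd44 at chr2:102901616-102901915 on the minus strand. Capitals mark matches to 3 motifs, searched on both strands: the letters GCCNNNGGC, which TFAP2 factors are known to read, the letters TGACTCA, read by AP-1 factors, and the letters TATAAA of the core promoter box.
Tnfaip6: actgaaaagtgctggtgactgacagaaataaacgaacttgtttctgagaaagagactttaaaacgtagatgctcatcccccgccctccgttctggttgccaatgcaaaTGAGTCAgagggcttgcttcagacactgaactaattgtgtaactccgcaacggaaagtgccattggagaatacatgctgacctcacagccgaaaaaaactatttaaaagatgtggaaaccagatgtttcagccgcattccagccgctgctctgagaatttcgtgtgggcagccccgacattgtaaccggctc
Vcan: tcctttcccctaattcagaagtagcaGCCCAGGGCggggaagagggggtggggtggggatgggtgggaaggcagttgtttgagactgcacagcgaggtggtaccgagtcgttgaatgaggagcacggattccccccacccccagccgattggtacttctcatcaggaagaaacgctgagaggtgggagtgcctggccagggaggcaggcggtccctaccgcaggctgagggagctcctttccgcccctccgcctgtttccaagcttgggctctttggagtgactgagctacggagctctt
Hyal1: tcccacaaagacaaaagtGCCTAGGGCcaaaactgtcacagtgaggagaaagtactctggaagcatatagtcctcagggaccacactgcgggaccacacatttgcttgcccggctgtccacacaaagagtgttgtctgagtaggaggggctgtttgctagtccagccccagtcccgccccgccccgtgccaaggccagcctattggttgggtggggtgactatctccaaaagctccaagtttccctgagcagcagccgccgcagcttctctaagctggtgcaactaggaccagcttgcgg
Cd44: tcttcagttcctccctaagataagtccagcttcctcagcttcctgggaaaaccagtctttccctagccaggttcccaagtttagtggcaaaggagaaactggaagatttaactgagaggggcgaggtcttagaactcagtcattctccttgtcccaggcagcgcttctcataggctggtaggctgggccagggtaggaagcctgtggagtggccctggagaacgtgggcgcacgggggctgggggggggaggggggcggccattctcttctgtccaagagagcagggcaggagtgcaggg

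The Tnfaip6 window, upstream of a gene that was higher in Hint1-/- samples, held the AP-1 letters on the minus strand at position -142 from the start. The Vcan window held TFAP2 letters at position -224 and the Hyal1 window at position -232. Vcan was higher and Hyal1 lower in Hint1-/- samples. The Cd44 window held none of the 3 motifs, and neither did those of Has1 and Hyal2, which did not pass the test. Among all 32851 promoters of the same length, 16.6% held the TFAP2 letters, 5.20% the AP-1 letters and 13.6% the core promoter letters. These matches describe letters and not binding, and a link between them and the direction of change was not tested.

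By edgeR's quasi-likelihood test, with p-values adjusted by the Benjamini-Hochberg method over the 13535 genes tested, 5 of the 8 members passed an adjusted p of 0.05, where 21.5% of all genes tested did. Tnfaip6 and Vcan were higher in Hint1-/- samples (2 members, against 11.2% of all genes). Has2, Hyal1 and Cd44 were lower (3 members, against 10.2% of all genes). Called genes were more frequent among well counted ones, at 24.1% of those averaging 200 counts or more, a level that Has3 alone among the members did not reach. Has1, Has3 and Hyal2 did not pass. The changes were small. None of the 8 also exceeded a fold change of 1.5, where 2.83% of all genes passed both thresholds. The count past the fold limit was 0 as well at an unadjusted p under 0.05, and 0 with DESeq2 and with limma-voom. The median log2 fold change of the 8 members was -0.07, against 0.00 for all genes tested.

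**Figure D1:**
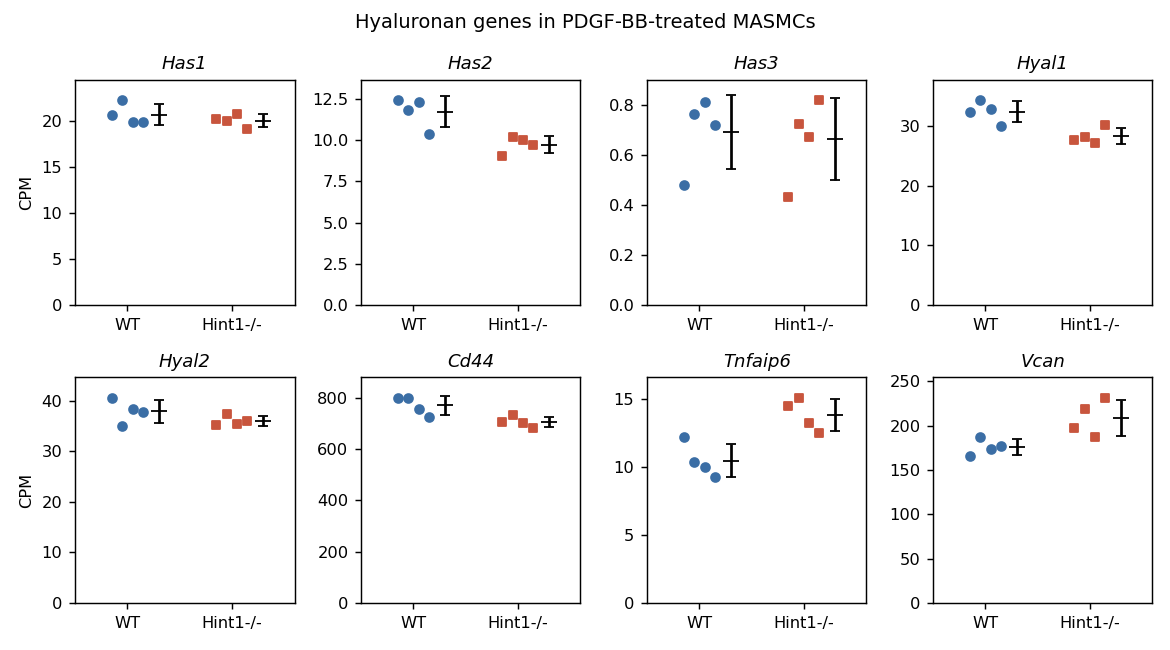
Level of each hyaluronan gene in CPM in each WT sample (circles) and Hint1-/- sample (squares), on a linear axis from 0 with its own range in each panel. The bar at the right of each group is the mean with its SD (n = 4). Tnfaip6 lies higher in the Hint1-/- samples, Vcan lies higher with groups that touch at 187 CPM, and Has2 lies lower. The groups of the other 5 genes overlap, those of Hyal1 and Cd44 at 1 edge.

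The 3 synthases did not move together. Has2 (chr15:56665627-56694539), which encodes the synthase best known from activated mesenchymal cells, had 259, 248, 257 and 217 counts in the WT samples and 187, 211, 208 and 202 in the Hint1-/- samples. The highest Hint1-/- sample was under the lowest WT sample. The WT mean was 11.7 ± 0.927 CPM, and the Hint1-/- mean was 9.74 ± 0.515 CPM (SD, n = 4, as for all values given with ±). Has2 thus fell to 0.830 times the WT level (log2 fold change -0.27, SE 0.075, 95% interval -0.43 to -0.11, edgeR adjusted p = 0.0144). The call was close to the threshold, with an adjusted p of 0.0503 by DESeq2 and of 0.0516 by edgeR without Hint1-/- replicate 1, the lowest sample.

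Has1 (chr17:17843323-17855205), a second synthase, had 432, 468, 417 and 415 counts in WT and 421, 414, 433 and 399 in Hint1-/- samples. The groups overlapped over most of their range. The log2 fold change was -0.04 (SE 0.056, 95% interval -0.16 to 0.07, edgeR adjusted p = 0.638), which in folds ran from 0.894 to 1.05. Has3 (chr8:106870242-106884566), the third synthase, was barely present, with 10, 16, 17 and 15 counts in WT and 9, 15, 14 and 17 in Hint1-/- samples. At this depth the interval of its fold change ran from 0.641 to 1.42 (log2 fold change -0.06, edgeR adjusted p = 0.900), and its sign turned when 1 of 2 libraries was left out.

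Per kilobase of exon, Has1 was the most abundant synthase. It made up 61.4% ± 1.90 of the summed per-length level of the 3 synthases in WT samples and 64.9% ± 1.64 in Hint1-/- samples. The share of Has2 was 37.1% ± 1.98 in WT samples, with a range of 35.2% to 39.0%. In Hint1-/- samples it was 33.6% ± 1.28, with a range of 31.8% to 34.6%. Has3 held 1.46% and 1.52%. These shares follow from the counts above and are given without a test. They are shares of transcript and say nothing of enzyme activity.

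Of the hyaluronidases, Hyal1 fell and Hyal2 did not pass the test. Hyal1 (chr9:107576927-107581710), the lysosomal enzyme, had 676, 720, 687 and 626 counts in WT and 573, 584, 565 and 626 in Hint1-/- samples. The groups met at their edge, since replicate 4 of both genotypes had 626 counts, and the other 3 Hint1-/- samples lay below all WT samples. The mean of 32.4 ± 1.79 CPM in WT stood against 28.3 ± 1.31 CPM in Hint1-/- cells, a fall to 0.873 times (log2 fold change -0.20, SE 0.051, edgeR adjusted p = 0.00999). Hyal2 (chr9:107567945-107572779), its neighbour on the same strand, had 846, 734, 803 and 788 counts in WT and 730, 774, 738 and 748 in Hint1-/- samples. The groups overlapped, and the log2 fold change was -0.07 (95% interval -0.17 to 0.02, edgeR adjusted p = 0.297). A difference between the changes of Hyal1 and Hyal2 was not tested. The exons of Hyal1 share 1920 bases with Naa80 on the same strand and 159 with Hyal3. Its deposited values were fractional in all 8 samples, as happens when reads are divided between genes, so its level is uncertain. Naa80 itself had a log2 fold change of -0.07 (edgeR adjusted p = 0.336).

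The receptor gene Cd44 (chr2:102811141-102901665) was the most abundant member by far. Its counts were 16638, 16760, 15840 and 15088 in WT and 14585, 15133, 14607 and 14183 in Hint1-/- samples. The WT sample with the lowest count, replicate 4, lay within the range of the Hint1-/- samples, and the other WT samples lay above it. Mean levels were 769 ± 36.4 and 705 ± 19.9 CPM. Cd44 fell to 0.917 times the WT level (log2 fold change -0.13, SE 0.037, 95% interval -0.20 to -0.05, edgeR adjusted p = 0.0192, DESeq2 adjusted p = 0.00490). Without WT replicate 1 the edgeR adjusted p was 0.0680, and without Hint1-/- replicate 4 it was 0.0615.

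Macrophages also carry CD44, and the macrophage markers were lower in the Hint1-/- samples too. Of the 7 macrophage markers tested, 6 were lower and 0 higher, where 10.2% of all genes tested were lower. The summed level of the macrophage markers in Hint1-/- samples was 0.795 times that in WT. The summed smooth muscle markers were lower as well, at 0.811 times, with 6 of 8 lower and 1 higher. That sum was led by Acta2, at 0.700 times the WT level, and single markers differed widely. Myh11 stood at 0.343 times, Cnn1 at 0.459 times and Smtn, the higher one, at 1.19 times. Schwann and neural crest markers, led by Ngfr, summed to between 47.9 and 54.6 CPM in WT and between 12.5 and 14.4 CPM in Hint1-/- samples. The part of these in the levels of Cd44, Has2 and Hyal1 was not tested. In bulk samples such as these, fewer cells of a type and less RNA per cell cannot be told apart.

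The genes for both binding proteins rose. Tnfaip6 (chr2:52038009-52056686) encodes TSG-6, the heavy chain transferase. It had 254, 218, 209 and 194 counts in WT and 300, 312, 276 and 259 in Hint1-/- samples. The lowest Hint1-/- sample was above the highest WT sample, by a narrow margin. The WT mean was 10.5 ± 1.23 CPM, and the Hint1-/- mean was 13.8 ± 1.17 CPM. The rise was 1.32-fold (log2 fold change 0.40, SE 0.084, 95% interval 0.23 to 0.58, edgeR adjusted p = 0.00176), the largest change of the 8 members by fitted fold change, and with every alternative tried the adjusted p stayed at or below 0.00963.

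Vcan (chr13:89655312-89742509), which encodes the large chondroitin sulfate proteoglycan that aggregates with hyaluronan, had 3456, 3931, 3627 and 3692 counts in WT and 4090, 4538, 3897 and 4805 in Hint1-/- samples. The raw counts of WT replicate 2 and Hint1-/- replicate 3 crossed, and after scaling for library size these samples stood at 187 CPM each, so the groups touched. The WT mean was 176 ± 8.95 CPM, and the Hint1-/- mean was 209 ± 20.1 CPM. Vcan rose 1.19-fold (log2 fold change 0.25, SE 0.054, edgeR adjusted p = 0.00247). In scaled levels, the 2 genotypes did not overlap for Tnfaip6 and Vcan, higher in Hint1-/- samples (2 members, against 11.9% of all genes), nor for Has2, lower (1 member, against 11.0% of all genes). Fibroblast markers, led by Col1a1, moved in both directions, with 3 of 7 higher and 2 lower, beside 11.2% and 10.2% of all genes. Their summed level was 4979 to 5467 CPM in WT and 5515 to 5907 CPM in Hint1-/- samples. Their part in the rise of Tnfaip6 and Vcan was not tested.

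**Figure D2:**
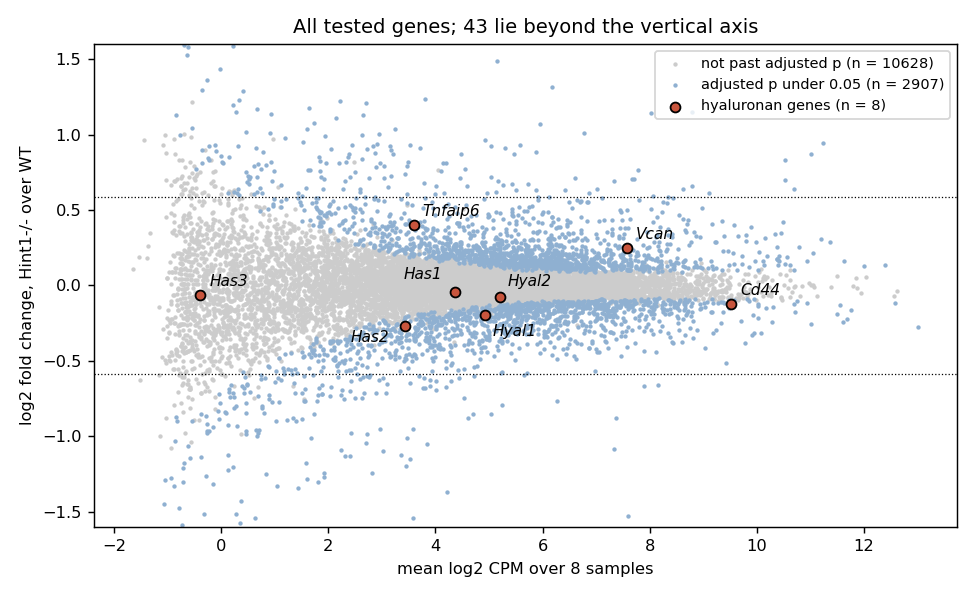
Fitted log2 fold change (Hint1-/- over WT) against mean log2 CPM for the 13535 genes tested, with the 8 hyaluronan genes named and dotted lines at a fold change of 1.5. All 8 lie between the dotted lines. Cd44 is among the most abundant genes and Has3 among the least, and 43 genes lie beyond the vertical axis.

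Levels of the 8 members were compared with each other per kilobase of summed exon length. The leading genes of the marker lists were ranked by CPM, without length. In WT samples Cd44 stood at 114 ± 5.38 CPM per kilobase. Vcan followed at 12.2 ± 0.619 and Hyal2 at 11.5 ± 0.701, which did not differ beyond their spread. Below them came Hyal1 at 8.58 ± 0.475, Tnfaip6 at 6.12 ± 0.720, Has1 at 4.58 ± 0.249, Has2 at 2.77 ± 0.219 and Has3 at 0.109 ± 0.0231. In Hint1-/- samples the order was the same except that Tnfaip6, at 8.08 ± 0.685, stood above Hyal1, at 7.49 ± 0.347. This exchange lay within the spread, and it was absent when the longest transcript was used as the length, with 8.08 for Tnfaip6 and 9.39 for Hyal1.

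**Figure D3:**
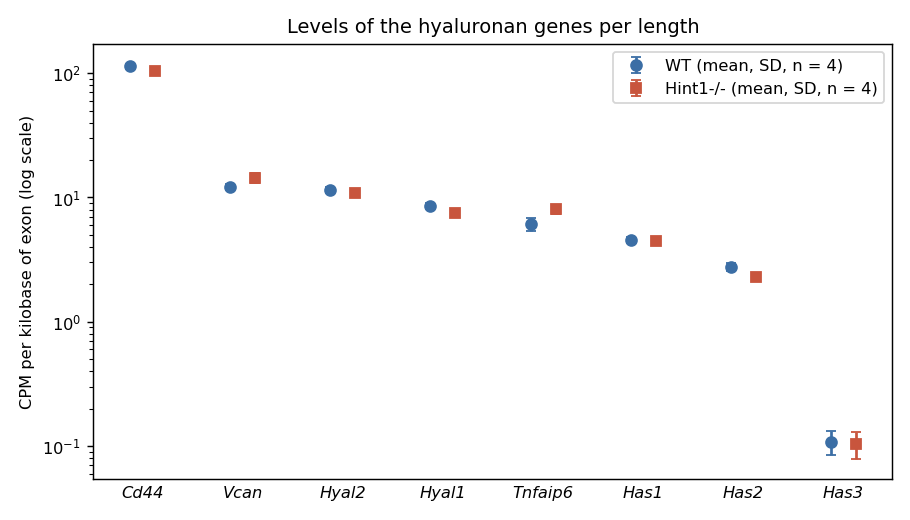
Level of each hyaluronan gene in CPM per kilobase of exon, on a log axis, as mean and SD of 4 WT samples (circles) and 4 Hint1-/- samples (squares). Cd44 stands at 114 in WT and Has3 at 0.109, and the other 6 genes lie between 2.30 and 14.4.

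The gene whose profile over the 8 samples was searched for likeness was Cd44, the called member with the most counts. Likeness was the root mean square difference of log2 CPM after each gene was centred on its own mean, over 11849 genes averaging 50 counts or more. The 5 closest were Tspan31 (0.0214), Oasl2 (0.0217), Dhx58 (0.0227), Msn (0.0235) and Donson (0.0237), where the median gene stood at 0.115. The measure includes the difference between the genotypes. Msn encodes moesin, which links the tail of CD44 to actin. Tspan31 had a log2 fold change of -0.09 (edgeR adjusted p = 0.0717) and Donson of -0.13 (edgeR adjusted p = 0.148), so closeness in profile did not require a call.

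Around the 8 members, 79 further symbols of the hyaluronan system were listed in 7 groups, also with earlier results of these data known. Of the 79, 74 were analysed and 59 passed the filter on low counts. Of these 59, 15 were higher and 11 lower in Hint1-/- samples by edgeR's adjusted p, and 33 did not pass, beside the 21.5% of all genes that did. Their median log2 fold change was 0.01. Past both thresholds were 5, with 4 higher and 1 lower, beside 1.34% higher and 1.49% lower of all genes tested.

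Among the 8 enzymes that make the sugar precursors, 2 rose and 0 fell, a share near the 21.5% of all genes called. Gfpt2, an isoform of the enzyme that opens the hexosamine pathway, had 2925, 2756, 2867 and 2832 counts in WT and 3337, 3328, 3051 and 3517 in Hint1-/- samples. Its groups did not overlap, as for 11.9% of all genes in that direction. It rose by a log2 fold change of 0.23 (SE 0.040, edgeR adjusted p = 0.000381). Ugdh, which makes UDP-glucuronic acid, rose by 0.12 (edgeR adjusted p = 0.0131, and 0.0629 without WT replicate 3). The log2 fold changes of the other 6 lay between 0.01 and 0.13, and the median of the 8 was 0.10.

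Among 6 other tested genes of hyaluronan breakdown, 2 rose and 3 fell, beside 11.2% higher and 10.2% lower of all genes tested. Cemip, which encodes a hyaluronan-depolymerizing protein, had 7801, 8086, 8389 and 8613 counts in WT and 7678, 6570, 6602 and 7537 in Hint1-/- samples. The latter were all lower, as for 11.0% of all genes in that direction. Cemip fell (log2 fold change -0.20, SE 0.048, edgeR adjusted p = 0.00538). Gusb, the lysosomal beta-glucuronidase, had a log2 fold change of -0.22 (edgeR adjusted p = 0.000141). Cemip2, a membrane-bound relative of Cemip, rose with a log2 fold change of 0.16 (edgeR adjusted p = 0.0289), a call that was lost in DESeq2 (adjusted p = 0.0940) and without WT replicate 1 or 3 or Hint1-/- replicate 3 or 4 (edgeR adjusted p from 0.0619 to 0.0928). Hyal3, which shares exon sequence with Hyal1, had 19 to 31 counts and did not pass.

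Of 5 other receptors tested, Hmmr was the one that passed, beside 21.5% of all genes. Hmmr encodes RHAMM, which binds hyaluronan and is also a mitotic spindle protein. It had 1348, 1449, 1343 and 1270 counts in WT and 1642, 1762, 1632 and 1645 in Hint1-/- samples. The latter were all higher, as for 11.9% of all genes in that direction. The log2 fold change was 0.32 (SE 0.041, edgeR adjusted p = 1.71e-05). The innate receptors Tlr2 and Tlr4 had log2 fold changes of 0.01 and 0.00, with intervals of -0.07 to 0.10 and -0.10 to 0.10. Lyve1 never exceeded 4 counts and Stab2 never exceeded 9, too few to be tested.

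Of 17 other binding and cross-linking proteins, 7 could be tested. Of these 7, 3 were higher and 2 lower by edgeR's adjusted p, beside 11.2% and 10.2% of all genes tested. Past both thresholds, 3 were higher and 1 lower, beside 1.34% and 1.49% of all genes tested. Itih5, a heavy chain of the inter-alpha-trypsin inhibitor family, had 133, 138, 158 and 115 counts in WT and 252, 245, 236 and 275 in Hint1-/- samples. It rose 1.87-fold (log2 fold change 0.90, SE 0.089, edgeR adjusted p = 5.51e-07). Itih2, which encodes a heavy chain that is transferred to hyaluronan, had 576, 578, 605 and 596 counts in WT and 940, 916, 921 and 997 in Hint1-/- samples. Its rise was 1.61-fold (log2 fold change 0.69, SE 0.043, edgeR adjusted p = 9.8e-10). Ptx3 encodes pentraxin 3, which binds the transferred heavy chains. It had 9904, 9782, 9347 and 8360 counts in WT and 13393, 14248, 14539 and 14534 in Hint1-/- samples, and rose 1.53-fold (log2 fold change 0.61, SE 0.045, edgeR adjusted p = 1.22e-08). Without WT replicate 4 its log2 fold change was 0.56, inside the fold limit. The groups of Itih5, Itih2 and Ptx3 did not overlap, as with Tnfaip6 and with 11.9% of all genes in that direction.

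Aggrecan and bikunin went the other way. Acan, the cartilage proteoglycan related to versican, was at 23, 18, 15 and 14 counts in WT and 6, 5, 2 and 6 in Hint1-/- samples, a very low level in both. Its log2 fold change was -1.84 (SE 0.34, edgeR adjusted p = 0.000615). Ambp, which encodes the bikunin light chain of inter-alpha-trypsin inhibitor, had a log2 fold change of -0.35 (edgeR adjusted p = 0.0255). Its WT range of 205 to 301 counts rested on replicate 4, and without that sample the log2 fold change was -0.21 (edgeR adjusted p = 0.0990). Leaving out Hint1-/- replicate 1, 2 or 4 also lost the call, with edgeR adjusted p from 0.0554 to 0.0892. Of the link protein genes, Hapln1 had at most 2 counts in a sample, Hapln2 at most 1 and Hapln3 at most 8. Hapln4 was measured well, at 148 to 172 counts in WT and 177 to 182 in Hint1-/- samples, and its log2 fold change of 0.19 did not pass (edgeR adjusted p = 0.0862). Chondrocyte markers, of which Sox9 was the most abundant, summed to between 20.1 and 22.6 CPM in WT and between 48.4 and 50.5 CPM in Hint1-/- samples, while Acan, itself on that list, was lower. Most of that rise was Col2a1, the cartilage collagen, whose mean was 2.28 CPM in WT against 24.4 CPM with Hint1 deleted, beside 17.9 and 24.9 CPM for Sox9.

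**Figure D4:**
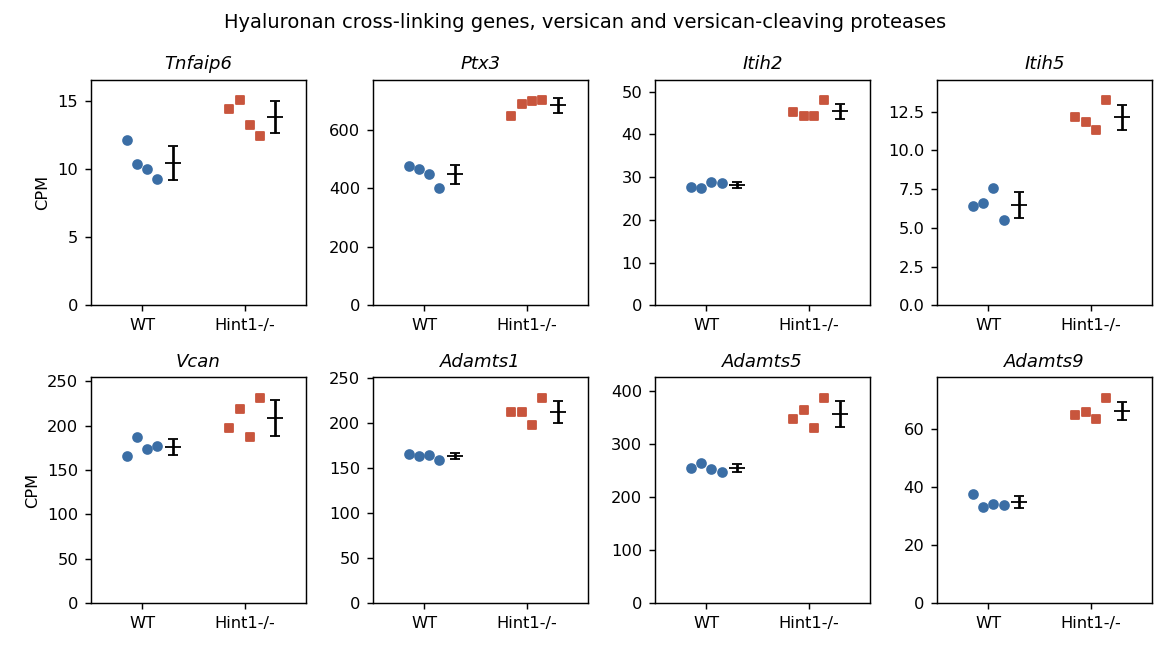
Level in CPM of Tnfaip6, Ptx3, Itih2 and Itih5 (upper row, hyaluronan cross-linking) and of Vcan and the proteases Adamts1, Adamts5 and Adamts9 (lower row) in each WT sample (circles) and Hint1-/- sample (squares), with mean and SD (n = 4). The 8 genes are a choice among those called higher in Hint1-/- samples, as 11.2% of all genes tested were. Acan, Ambp and Adamts15, of the same groups of genes but called lower, are not shown. The narrowest gap between genotypes is that of Vcan.

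Of 5 tested proteases that cleave versican, 3 rose and 1 fell, beside 11.2% higher and 10.2% lower of all genes tested. Adamts9 had 785, 695, 713 and 706 counts in WT and 1340, 1364, 1315 and 1466 in Hint1-/- samples. It rose 1.91-fold (log2 fold change 0.93, SE 0.046, edgeR adjusted p = 3.87e-11). Adamts5 had 5301, 5536, 5275 and 5160 counts in WT and 7187, 7517, 6862 and 8021 in Hint1-/- samples, a 1.40-fold rise (log2 fold change 0.49, edgeR adjusted p = 9.71e-08). Adamts1 rose as well (log2 fold change 0.38, edgeR adjusted p = 8.38e-07). Adamts15 fell (log2 fold change -0.28, edgeR adjusted p = 0.00709), and Adamts4 had a log2 fold change of -0.12 (edgeR adjusted p = 0.0880). For Adamts9, Adamts5 and Adamts1 the genotypes did not overlap, as for 11.9% of all genes in that direction.

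Of 21 tested genes for the chondroitin sulfate chains that versican carries, 3 were higher, 2 were lower and 16 did not pass, a share near the 21.5% of all genes called, with a median log2 fold change of -0.03. Chst3, a chondroitin 6-sulfotransferase, had a log2 fold change of -0.33 (edgeR adjusted p = 0.0131, and 0.0647 by DESeq2). Csgalnact1, which starts the chain, had a log2 fold change of -0.28 (edgeR adjusted p = 0.00455). Chst11, a 4-sulfotransferase, had one of 0.16 (edgeR adjusted p = 0.0141, and 0.0503 without WT replicate 4).

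Of 7 genes for proteins that link CD44 to the cytoskeleton or shed it, 1 was higher and 3 were lower. Of all genes tested, 11.2% were higher and 10.2% lower. Msn, the most abundant of the 7, had 26596, 26264, 24684 and 24591 counts in WT and 22792, 23705, 22515 and 22189 in Hint1-/- samples. The latter were all lower, as for 11.0% of all genes in that direction. The log2 fold change of Msn was -0.15 (SE 0.036, edgeR adjusted p = 0.00442). Mmp14, a membrane protease that can cut CD44, was at -0.13 (edgeR adjusted p = 0.00701). Rdx, which encodes radixin, was at 0.11 with an edgeR adjusted p of 0.0489, and the call was lost without WT replicate 1, 3 or 4 or Hint1-/- replicate 2, 3 or 4, with adjusted p up to 0.152. The sheddases Adam10 and Adam17 did not pass, with log2 fold changes of -0.01 and 0.04.

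**Figure D5:**
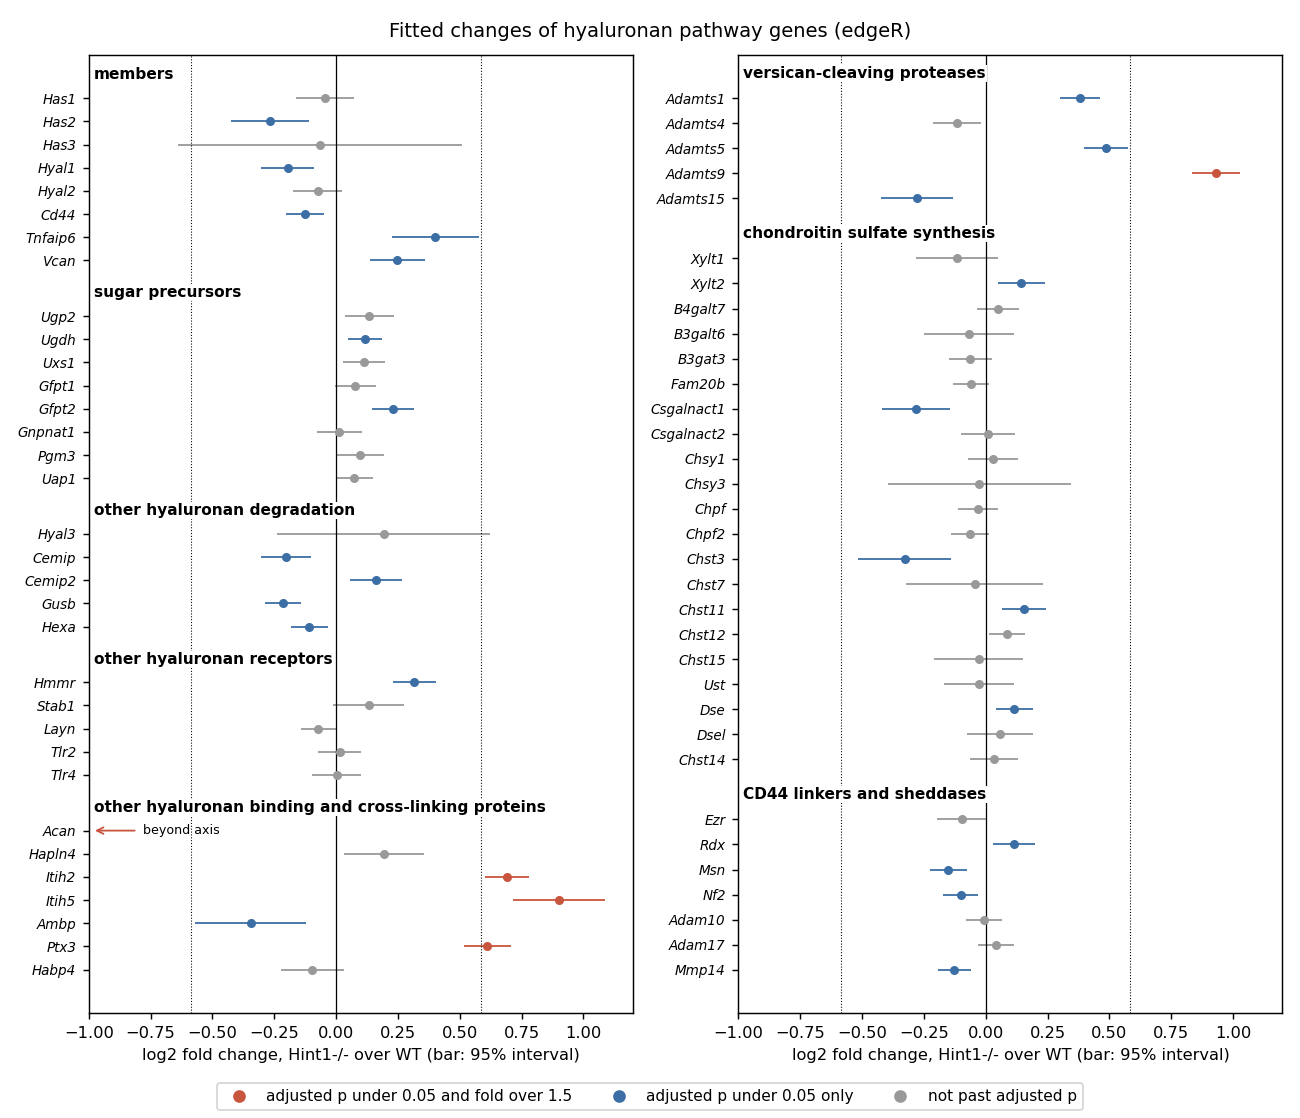
Fitted log2 fold change (Hint1-/- over WT) with its 95% interval for the 8 hyaluronan genes and 58 of the 59 tested genes of the 7 further groups, coloured by whether the adjusted p was under 0.05 alone or with a fold change over 1.5 (dotted lines). Itih2, Itih5, Ptx3 and Adamts9 lie beyond the right dotted line, and Acan, at -1.84, is off the left end of the axis.

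In the mm10 annotation, 5 of the 8 members share no exon bases with another gene. Besides Hyal1, the exons of Has2 share 182 bases with Has2os on the opposite strand and those of Has3 share 352 bases with Chtf8. No source states whether counting used strand, and without it reads from such pairs cannot be told apart. Chtf8 had a log2 fold change of -0.09 (edgeR adjusted p = 0.0426). The values of Has2, Has3, Hyal2 and Vcan were whole numbers in all 8 samples, and those of Has1, Hyal1 and Tnfaip6 were fractional in all 8. Those of Cd44 were whole in 5 of the 8 and fractional in the others. Part of the reads of Has1, Hyal1, Tnfaip6 and Cd44 was therefore estimated.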

How the data were processed

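Each of the 8 files held 1 sample: gene symbols with the expected counts that the authors estimated and deposited, from BGISEQ-500 reads of 50 bases on mm10. The submitters' processing notes name Bowtie2 and RSEM 1.3.1, and the study's methods name HISAT2 for mapping. Annotation and strand are not given in the sources used here. Groups came from the sample titles.

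Expected counts were rounded and tested with edgeR 4.0.16 in R 4.3.3 (TMM scaling, filterByExpr, glmQLFit and glmQLFTest, two-sided), WT against Hint1-/-, and p-values were adjusted by the Benjamini-Hochberg method over the 13535 genes kept by the filter. Calls were made at an adjusted p of 0.05, alone and with a fold change over 1.5, the limits of the study's methods. CPM used TMM-scaled library sizes. The biological coefficient of variation was 3.79%. Scripts were tested on simulated counts. DESeq2 1.42.0 and limma-voom (limma 3.58.1) were alternatives, with other scalings and filters, unrounded counts, the replicate block, glmTreat and leaving out each sample. No 2 libraries agreed within sampling noise.

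The 8 members and the gene lists were chosen with earlier results of these data known. Named genes were the members, Hint1, every listed pathway gene past both thresholds, up to 3 others per list with the largest called change, the 5 genes most like Cd44, and the leading gene of each marker list. Genes named outside this rule (Hyal3, Tlr2, Tlr4, Lyve1, Stab2, Hapln1, Hapln2, Hapln3, Hapln4, Col2a1, Adamts4, Adam10, Adam17, C1qa, C1qb, Csf1r, Cd14, Cd68, Ptprc, Adgre1, Myh11, Cnn1, Smtn) were picked with their values in view, and Naa80 and Chtf8 for overlap. A listed gene that enters the counts is not reported here. Gene positions and exon lengths came from GENCODE M21, and promoters from the RefSeq table of GRCm38.p6. Mesothelial markers, led by Krt19, summed to between 5.88 and 6.71 CPM in WT and between 7.45 and 10.8 CPM in Hint1-/- samples.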

Additional observations from a re-analysis of the deposited data

Results flagged for a closer look

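Hmmr in the Hint1-/- samples had 1 sample apart from the rest. Replicate 2 had 1762 counts, where the other 3 had 1632 to 1645. Its gap to the nearest sample was 0.881 of the group's whole range in log2 CPM, above the 95% critical value of Dixon's test for 4 samples. This was 1 of 60 groups examined, and chance marks about 1 in 20, or 3 of 60. All 4 Hint1-/- samples lay above all WT samples, as for 11.9% of all genes tested.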

How the results depend on the processing

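Over 462 values of the 8 members and 21 named pathway genes under the alternatives, 433 kept their direction and their side of the thresholds, 27 lost the call and 2 changed sign. Has1, Hyal1, Hyal2, Tnfaip6 and Vcan and 14 of the 21 pathway genes kept theirs under every alternative in which they were tested. Has2 lost its call with DESeq2 and without Hint1-/- replicate 1, and Cd44 without WT replicate 1 or Hint1-/- replicate 4. Has3, never called, ranged from -0.20 to 0.091 with 1 sample left out, turning positive without WT replicate 3 (0.019) or Hint1-/- replicate 1 (0.091). With 1 sample left out, 4 to 5 members, 19 to 26 pathway genes and 2258 to 2909 of all genes passed the adjusted p, and 0 members, 4 to 5 pathway genes and 350 to 390 of all genes passed both thresholds. Testing against the fold limit itself (glmTreat) gave 108 genes in place of 383, and 3 pathway genes in place of 5. With DESeq2, 4 members passed the adjusted p, against 15.6% of 14839 genes. The cause of these changes was not tested. Has3 and Acan were too low for the filter of 10 counts in every sample.

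With the replicate number as a block, 5 members, 27 pathway genes and 3082 genes passed the adjusted p, against 5, 26 and 2907 without it. Same-numbered samples correlated at -0.05 to 0.08 in their deviations from the group means. WT replicates 2 and 4 matched best with their own number, and WT replicates 1 and 3 did not. These correlations cannot tell whether same-numbered samples shared a preparation, which no source states. Depth limits Has3 and Acan, at under 25 counts a sample.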
